A study of Mus musculus with 8 samples.

Results

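The Apoa1, Apoc3, Apoa4 and Apoa5 genes lie side by side on mouse chromosome 9, and each encodes an apolipoprotein that travels on plasma lipoproteins. They were examined together with Sik3 and Bud13, genes that flank the cluster. Every transcript cluster (the set of array probes summarised as 1 value) whose platform annotation named 1 of these 6 genes was taken. Each of the 6 genes had 1 such transcript cluster, named with no other gene, among 22180 genes tested and 41345 transcript clusters in all. The samples were AML12 cells, a line of hepatocytes from mouse liver. Cells stably expressing Zfp125, a zinc finger protein gene, formed a group of 4 arrays, and AML12 cells carrying the empty vector (EV) formed the other group of 4. Both groups had been selected with G418 and were kept in control medium. The sources used here give neither the promoter that drove Zfp125 nor whether a group was 1 clone or a pool of cells. The labels do not say that the 4 samples of a group were separate cultures, so the p-values speak for the spread among these arrays alone, and that spread may be technical.

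Apolipoproteins of this cluster sit on the surface of lipoprotein particles and set how the particles are built, lipolysed and cleared. ApoA-I, the chief protein on high-density lipoprotein (HDL), activates the cholesterol-esterifying enzyme LCAT. ApoC-III rides on triglyceride-rich particles and slows their lipolysis and uptake, whereas apoA-V, made almost only by the liver, promotes lipolysis. In the liver the genes share control by nuclear receptors, among them HNF4A, and by an enhancer between Apoc3 and Apoa4.

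The sequences just upstream of the genes are shown first because 1 of them belongs to Apoa1, a gene that fell, and the others allow a comparison within the locus. RefSeq promoter windows (GRCm38.p6) were found for 5 of the 6 genes, and Apoc3 was not among them. The 250 bases before the annotated start are printed for the cluster genes and for Sik3 as a neighbour, 5′ to 3′, with motif matches in capitals.
Apoa1, GRCm38.p6 chr9:46228380-46228629, plus strand: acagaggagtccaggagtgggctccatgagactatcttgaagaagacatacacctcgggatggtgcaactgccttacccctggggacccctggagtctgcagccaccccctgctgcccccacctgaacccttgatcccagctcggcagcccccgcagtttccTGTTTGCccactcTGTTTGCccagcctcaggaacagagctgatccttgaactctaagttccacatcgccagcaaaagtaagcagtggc
Apoa4, GRCm38.p6 chr9:46240594-46240843, plus strand: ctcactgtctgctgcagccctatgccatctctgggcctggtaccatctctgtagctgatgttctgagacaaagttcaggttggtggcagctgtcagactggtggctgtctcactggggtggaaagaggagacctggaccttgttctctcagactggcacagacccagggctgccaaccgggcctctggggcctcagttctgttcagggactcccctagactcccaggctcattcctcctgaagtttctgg
Apoa5, GRCm38.p6 chr9:46268358-46268607, plus strand: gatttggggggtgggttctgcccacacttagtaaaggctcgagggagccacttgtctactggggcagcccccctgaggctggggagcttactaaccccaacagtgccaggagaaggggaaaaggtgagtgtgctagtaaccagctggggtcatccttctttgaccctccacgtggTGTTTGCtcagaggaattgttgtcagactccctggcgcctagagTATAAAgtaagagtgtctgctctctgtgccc
Sik3, GRCm38.p6 chr9:46012570-46012819, plus strand: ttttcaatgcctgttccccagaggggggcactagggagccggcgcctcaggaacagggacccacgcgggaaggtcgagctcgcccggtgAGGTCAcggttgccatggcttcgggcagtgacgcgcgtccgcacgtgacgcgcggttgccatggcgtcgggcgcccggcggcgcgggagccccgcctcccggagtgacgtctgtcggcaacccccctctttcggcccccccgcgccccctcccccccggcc
The motifs searched on both strands were CAAAGTC (part of the HNF4 site), AGGTCA (the repeat unit of nuclear receptor sites), TGTTTAC (bound by FOXA and FOXO factors), CCAAT (the CCAAT box) and TATAAA (the TATA box). A variant of the FOX site, TGTTTGC, was added after the sequences had been seen. This variant began 88 and 75 bases before the start of Apoa1, and 75 bases before the start of Apoa5. It was present in 4.30% of 32851 promoter windows of this length. TATAAA began 31 bases before the start of Apoa5 (12.4% of windows held it). A second annotated start of Apoa5 puts these matches at 100 and 56 bases. AGGTCA was found in the Sik3 window (14.0% of windows held it). The windows of Apoa4 and Bud13 held none of the 6 motifs. None of the 5 genes held CAAAGTC, which 3.84% of windows held. The same was true of TGTTTAC, held by 3.17% of windows, and of CCAAT, held by 33.8% of windows. No match overlapped another. Only exact matches were counted, so sites that vary from these motifs may be present. The windows also differed in CpG dinucleotides, of which Apoa1 had 4, Apoa4 had 1 and Apoa5 had 3, while Sik3 had 32 and Bud13 had 14. The median over all windows was 6.

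In Zfp125 cells the mRNAs of 2 of the 4 cluster apolipoproteins fell, Apoa1 by 0.61 ± 0.13 and Apoc3 by 0.57 ± 0.09 on the log2 scale (standard error, n = 4 arrays in each group). Apoa4 and Apoa5 did not pass the test, nor did the flanking genes Sik3 and Bud13. Calls were made where limma's moderated test gave an adjusted p under 0.05, with Benjamini-Hochberg adjustment over 22180 genes. By that rule 0.636% of all genes fell and 0.446% rose, so 1.08% changed. Of the 6 genes, 2 fell and 0 rose.

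Apoa1 had log2 values of 9.22, 9.07, 9.20 and 9.62 in Zfp125 cells, against 9.70, 9.69, 10.02 and 10.12 in EV cells. All 4 Zfp125 arrays lay below all 4 EV arrays, but the highest Zfp125 array, replicate 4, came close to the lowest EV array. The means were 9.28 ± 0.24 in Zfp125 cells and 9.88 ± 0.22 in EV cells (SD, n = 4 each), a 1.52-fold lower level in Zfp125 cells. The change of -0.61 had a 95% interval of -0.89 to -0.32 (limma adjusted p = 0.0492). Ordered by p, Apoa1 was the last of the 240 genes called in this comparison. Its fall was the 87th largest of the 22180. The call was lost in 7 of the 8 omissions of 1 array, where the change was -0.53 to -0.67 and the adjusted p 0.0585 to 0.163. Leaving out Zfp125 replicate 4 kept the call, with a change of -0.72 (adjusted p = 0.0194).

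Apoc3 had log2 values of 5.93, 6.06, 6.11 and 6.12 in Zfp125 cells, against 6.66, 6.66, 6.58 and 6.61 in EV cells. The groups were far apart for their spread, with means of 6.06 ± 0.09 in Zfp125 cells and 6.63 ± 0.04 in EV cells (SD, n = 4 each). The level was 1.49-fold lower in Zfp125 cells, and the change of -0.57 had a 95% interval of -0.76 to -0.39 (limma adjusted p = 0.00537). It ranked 53rd of all genes by p and 104th by size of fall. The call held in all 18 alternative settings, with adjusted p-values of 4.69e-04 to 0.0383.

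The changes of Apoa1 and Apoc3 were close in size, while their spread was not. The SD of Apoa1 within a group, 0.236 in Zfp125 cells and 0.218 in EV cells, was above the median SD over all tested genes, 0.132 in Zfp125 cells and 0.150 in EV cells. The SD of Apoc3 was below it, at 0.0863 in Zfp125 cells and 0.0383 in EV cells. The within-array difference of Apoa1 and Apoc3 averaged 3.22 in Zfp125 cells and 3.26 in EV cells on the log2 scale, so the changes differed by -0.03 ± 0.17 (standard error over arrays; exact permutation test, two-sided p = 0.857). Of all tested genes, 3.58% had 4 Zfp125 arrays all below the 4 EV arrays and 3.71% had them all above, 7.29% together. Apoa1 and Apoc3 were the 2 of the 6 genes with no overlap.

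Apoa4, an apolipoprotein of intestinal and hepatic particles, had log2 values of 5.14, 5.34, 5.63 and 5.50 in Zfp125 cells, against 5.34, 5.86, 5.88 and 5.63 in EV cells. The groups overlapped, because replicate 1 of the EV cells lay below 3 of the 4 Zfp125 arrays. The means were 5.40 ± 0.21 in Zfp125 cells and 5.68 ± 0.25 in EV cells (SD, n = 4 each). The change was -0.28 ± 0.14 with a 95% interval of -0.57 to 0.02 (limma adjusted p = 0.486; exact permutation p = 0.171).

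Apoa5 had log2 values of 4.76, 4.38, 4.77 and 4.40 in Zfp125 cells, against 4.59, 4.69, 4.79 and 4.45 in EV cells. The groups were intermixed, and the Zfp125 arrays fell into a higher and a lower pair. The means were 4.58 ± 0.22 in Zfp125 cells and 4.63 ± 0.14 in EV cells (SD, n = 4 each), a change of -0.05 ± 0.12 with a 95% interval of -0.31 to 0.20 (limma adjusted p = 0.928).

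Sik3, a salt-inducible kinase on the Apoa1 side of the cluster, had log2 values of 6.41, 6.80, 6.63 and 6.55 in Zfp125 cells, against 6.53, 6.41, 6.41 and 6.60 in EV cells. The groups overlapped, and 2 of the 4 Zfp125 arrays, replicates 2 and 3, lay above every EV array. The means were 6.60 ± 0.16 in Zfp125 cells and 6.49 ± 0.09 in EV cells (SD, n = 4 each), a change of 0.11 ± 0.10 with a 95% interval of -0.11 to 0.33 (limma adjusted p = 0.766). Bud13, a subunit of the RES complex that acts in splicing, had log2 values of 5.06, 4.93, 4.94 and 5.04 in Zfp125 cells, against 4.89, 5.14, 4.93 and 4.69 in EV cells. The Zfp125 arrays all lay within the span of the EV arrays. The means were 4.99 ± 0.07 in Zfp125 cells and 4.91 ± 0.19 in EV cells (SD, n = 4 each), a change of 0.08 ± 0.10 with a 95% interval of -0.14 to 0.31 (limma adjusted p = 0.844).

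**Figure D1:**
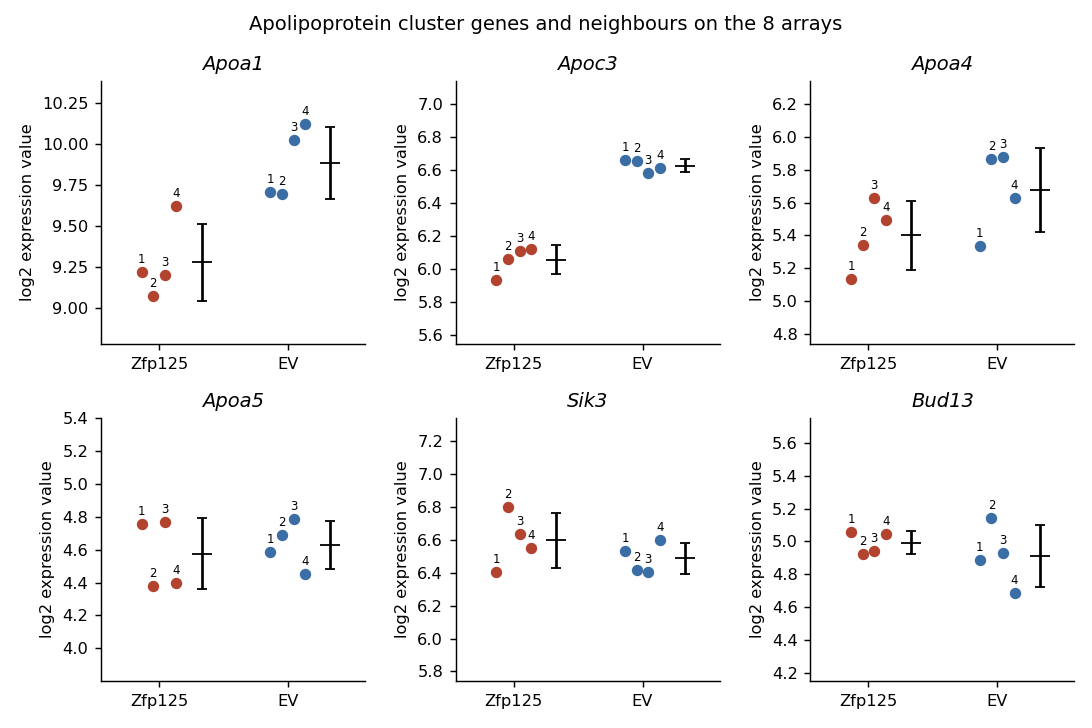
Log2 expression values (vertical axis, a span of equal size in each panel) of the 6 genes on the 4 Zfp125 and 4 EV arrays; numbers are replicates, and black marks are the mean ± SD. The groups do not overlap for Apoa1 and Apoc3 and overlap for the other 4 genes.

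Probes differ in brightness, so levels of different genes are set against each other only roughly here, to tell dim genes from bright ones. As a guide to dimness, 1088 olfactory receptor genes, which are expressed mainly in the nose, had a median level of 2.46 and a 95th percentile of 4.57 over the 8 arrays. Of these receptor genes, 4.87% were brighter than Apoa5, 2.94% were brighter than Bud13 and 0.735% were brighter than Apoa4. The share was 0.184% for Apoc3 and Sik3 and 0.0919% for Apoa1.

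Whether one gene changed more than another was asked with the within-array difference of 2 genes, for all 15 pairs. With 70 ways to split the 8 arrays, the smallest two-sided p of the exact permutation test is 0.0286, and 4 pairs reached it. These were Apoa1 minus Sik3, and Apoc3 minus each of Apoa5, Sik3 and Bud13. The change of Apoc3 minus that of Sik3 was -0.68 ± 0.08 on the log2 scale, and the difference was -0.65 ± 0.11 against Bud13 and -0.52 ± 0.16 against Apoa5 (standard error over arrays). The difference in change between Apoa1 and Sik3 was -0.71 ± 0.20, and between Apoa1 and Bud13 it was -0.69 ± 0.21 (exact permutation p = 0.0571). Adjusted over the 15 pairs, 0 pairs passed (exact permutation adjusted p = 0.107 for the 4 pairs). With so few arrays, a pair could pass only if most of the 15 pairs reached the smallest p. The adjusted result therefore cannot decide whether the changes differed. The change of Apoa4 lay between the others. Apoa1 minus Apoa4 gave -0.33 ± 0.20 (exact permutation p = 0.143), and Apoa4 minus Sik3 gave -0.39 ± 0.19 (exact permutation p = 0.114).

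**Figure D2:**
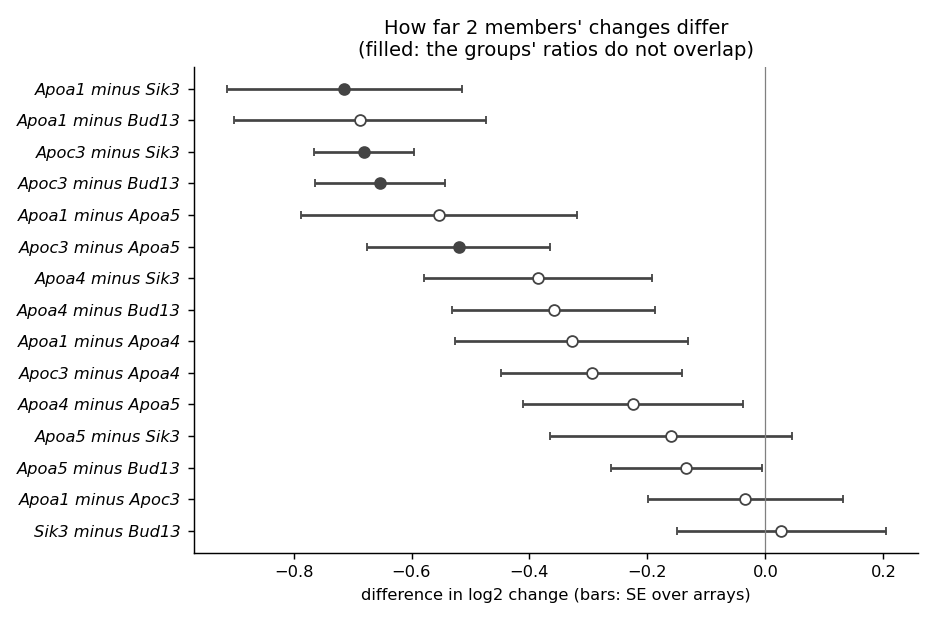
Difference in log2 change between 2 genes (horizontal axis) for the 15 pairs, with standard errors over arrays; filled points mark pairs whose within-array differences do not overlap between the Zfp125 and EV arrays. The 4 filled points are Apoa1 minus Sik3 and Apoc3 minus Sik3, Bud13 and Apoa5.

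The fall at Apoa1 and Apoc3 was next set beside the genes farther out. In the RefSeq gene order of chromosome 9, Apoa1, Apoc3, Apoa4 and Apoa5 stood next to each other with no other protein-coding gene between them. Of the 10 protein-coding genes on each side, which include Sik3 and Bud13, 18 of 20 were measured, and Rnf214 and Pafah1b2 were not analysed here. None of the 18 passed the limma test (0 of 18, lowest adjusted p = 0.354), and 2 had an unadjusted p under 0.05, both with a positive change. Over all genes 2424 of 22180, or 10.9%, had an unadjusted p under 0.05, so 2 of 18 is near the share of all genes. Their changes ran from -0.24 for Tagln to 0.25 for Gm4791, and 14 of 18 were above 0, with a median of 0.10 against -0.00268 over all genes. Zpr1, a zinc finger protein gene between Apoa5 and Bud13, had a change of -0.03 ± 0.10. On the other side, beyond Sik3, Sidt2, a lysosomal transmembrane protein gene, had a change of 0.17 ± 0.09. Cadm1, a cell adhesion gene beyond Bud13, had a change of 0.21 ± 0.09 (limma adjusted p = 0.406).

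**Figure D3:**
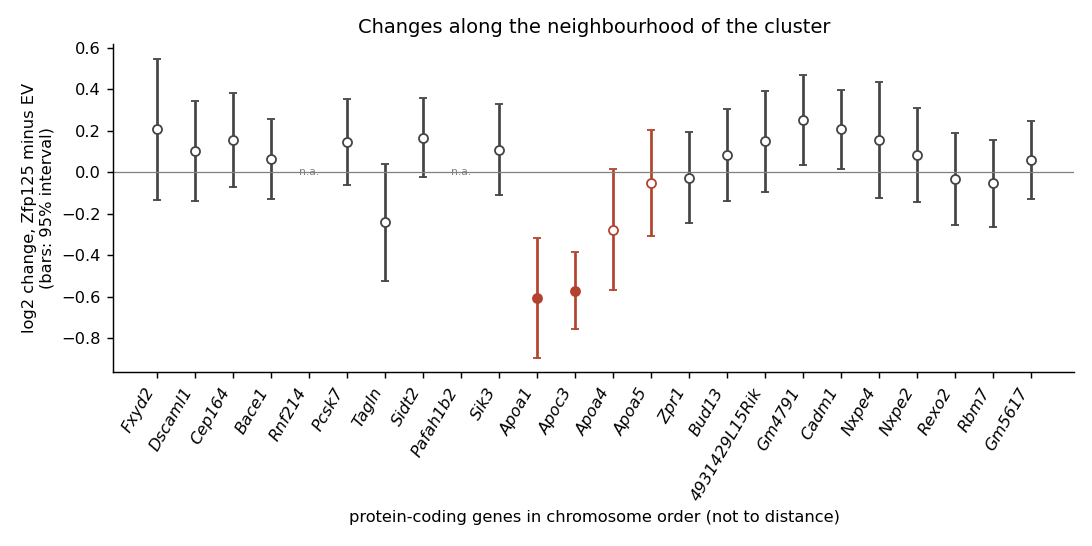
Log2 change, Zfp125 minus EV, with 95% intervals (vertical axis) for protein-coding genes in chromosome order, not spaced by distance; cluster genes are red, filled points passed the test and n.a. marks genes not analysed here. The 2 filled points are Apoa1 and Apoc3, and the changes of the 18 measured neighbours lie between -0.24 and 0.25.

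Genes named as apolipoproteins elsewhere in the genome changed in part. Of 16 measured apolipoprotein genes outside the cluster, 6 fell and 0 rose, and the median change was -0.08. Over all genes 0.636% fell. The 16 included Apoo, Apool, Apol6, Apol8, Apol9a and Apol9b, none of which passed the limma test. The falls of Apoc1 (-1.39 ± 0.11) and Apoc2 (-0.91 ± 0.11), apolipoproteins of triglyceride-rich particles, were larger in size than those of Apoa1 and Apoc3. Apoh, Apof and Apon also fell, by 1.04, 0.99 and 0.68, and Apoe was the sixth. Apoe, Apoc1 and Apoc2 belong to the same gene cluster, so the 6 falls do not come from 6 separate loci. Apoa2, the second protein of HDL, had a change of -0.12 ± 0.11 (limma adjusted p = 0.743).

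Another list was drawn up around lipolysis and uptake of triglyceride-rich particles, the process on which apoC-III and apoA-V act. Of its 26 measured genes 5 fell and 1 rose, with a median change of -0.10. Over all genes 0.636% fell and 0.446% rose. Apoc1, Apoc2 and Apoe, already counted among the apolipoproteins, were among the falls. Gckr, listed although it encodes the regulatory protein of glucokinase and not a protein of lipolysis or uptake, fell by 1.25 ± 0.10. Pcsk6, a proprotein convertase, fell by 0.72 ± 0.10 (limma adjusted p = 0.00241), with means of 6.06 in Zfp125 cells and 6.78 in EV cells. Sorl1, an endocytic receptor related to sortilin, rose by 0.65 ± 0.10 (limma adjusted p = 0.00467), with means of 5.64 in Zfp125 cells and 4.99 in EV cells. Sort1, sortilin itself, had a change of 0.35 ± 0.09 (limma adjusted p = 0.0900). The enzyme that apoC-III restrains, lipoprotein lipase (Lpl), had a change of -0.28 ± 0.10 (limma adjusted p = 0.257), and its maturation factor Lmf1 one of -0.24 ± 0.09 (limma adjusted p = 0.297).

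For HDL maturation and cholesterol efflux, where apoA-I acts, 2 of 22 measured genes fell (0.636% of all genes did) and 0 rose, with a median change of -0.04. They were Apof and Lcat, the enzyme that apoA-I activates, which fell by 0.74 ± 0.11. Abca1, the transporter that loads lipid onto apoA-I, had a change of 0.05 ± 0.09, and Bmp1, the protease that removes the propeptide of apoA-I, one of 0.22 ± 0.08 (limma adjusted p = 0.334). For assembly and secretion of very-low-density lipoprotein, 0 of 20 measured genes passed the limma test and 5 had an unadjusted p under 0.05 (10.9% of all genes had). Sec23b and Sec24d, coat proteins of vesicles leaving the endoplasmic reticulum, had the smallest p, with changes of -0.45 ± 0.11 and -0.37 ± 0.10 (limma adjusted p = 0.0806 and 0.131).

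Among 43 measured transcription factors known to act on the cluster, 1 fell and 1 rose, against 0.636% and 0.446% of all genes. Their median change was -0.08, and 13 had an unadjusted p under 0.05, against 10.9% of all genes. Foxa1, which opens liver enhancers, rose by 0.86 ± 0.11. Mlxipl, the carbohydrate response factor, fell by 0.59 ± 0.10. The following factors were named after their values had been seen, for their roles. Hnf4a, the main activator of the cluster in hepatocytes, had a change of -0.38 ± 0.09 (limma adjusted p = 0.0562), and the nuclear receptor Rora one of -0.41 ± 0.10 (limma adjusted p = 0.0791). Ppara, whose ligands lower Apoc3, had a change of -0.23 ± 0.13, Creb3l3, an activator of Apoa4, one of -0.07 ± 0.09, and Nr1h4, the bile acid receptor, one of 0.02 ± 0.11.

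The partners of the flanking genes were measured as well. Of 30 genes of the SIK and LKB1 pathway 0 passed the limma test and 4 had an unadjusted p under 0.05, with a median change of -0.00113. Sik1, the cAMP-induced relative of Sik3, had a change of -0.37 ± 0.09 (limma adjusted p = 0.0889), and Cab39l, a scaffold of the LKB1 complex, one of -0.41 ± 0.12 (limma adjusted p = 0.140). Of 25 measured genes of the RES complex and activated spliceosome 0 passed and 2 had an unadjusted p under 0.05, with a median of 0.02. Both counts are near the 10.9% of all genes at that threshold. Sf3b2 and Syf2, both spliceosome proteins, had changes of 0.23 ± 0.10 and -0.25 ± 0.11.

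**Figure D4:**
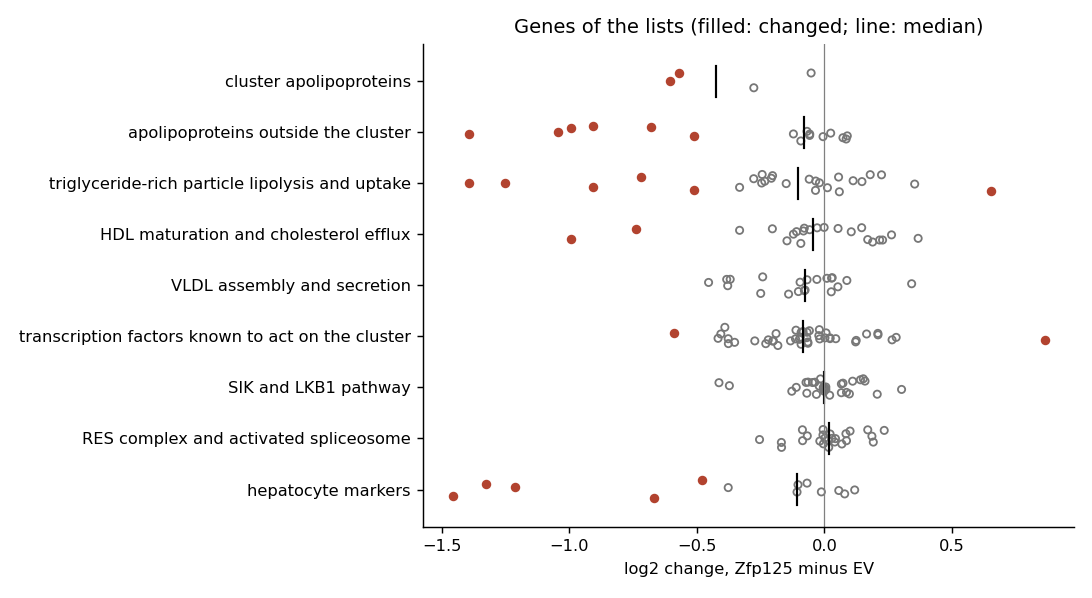
Log2 change, Zfp125 minus EV (horizontal axis), of the measured genes of each list; filled points passed the test and the vertical line is the list's median. Of the cluster apolipoproteins 2 of 4 are filled, and of the apolipoproteins elsewhere 6 of 16.

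The genes whose profiles over the 8 arrays were nearest to each fallen gene were found by the root mean square distance on the log2 scale, after each gene's own mean was subtracted. Nearest to Apoa1 were Hpx (hemopexin, a plasma heme carrier), Lcn2 (lipocalin 2), Itih3 (a heavy chain of the plasma inter-alpha-trypsin inhibitor), Cyp2d26 and Fkbp11, at distances of 0.0721 to 0.116. Nearest to Apoc3 were Depdc7, Creld2, Mlxipl, Kcnma1 and Gpd1 (glycerol-3-phosphate dehydrogenase), at distances of 0.0707 to 0.0836. The 2 sets shared no gene, and at these distances they could not have, given how far Apoa1 and Apoc3 lay from each other. Apoc3 ranked 83rd among the genes nearest to Apoa1, and Apoa1 ranked 674th among those nearest to Apoc3, at a distance of 0.203. Genes near these profiles share the size of the change and the spread among arrays by construction. Whether they pass the limma test therefore follows largely from how they were chosen. Of the 5 near Apoa1 only Cyp2d26 passed the limma test (adjusted p = 0.0481), whereas Hpx with a change of -0.51 ± 0.12 and Lcn2 with one of -0.56 ± 0.13 did not (adjusted p = 0.0602 and 0.0677). All 5 genes near Apoc3 passed, with adjusted p-values of 0.0101 to 0.0258.

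Some markers of hepatocytes fell as well. Of 13 measured markers 5 fell (Alb, Ahsg, Fgb, Serpina1c and Tat) and 0 rose, where 0.636% of all genes fell and 0.446% rose. The other markers did not pass the limma test, and the median change of all 13 was -0.11. The mean log2 level of all 13 per array was 8.20 to 8.42 in Zfp125 cells and 8.60 to 8.78 in EV cells. No marker passed the limma test among 10 of enterocytes (0 at an unadjusted p under 0.05), 5 of cholangiocytes (1), 9 of stellate cells and fibroblasts (1), 7 of endothelium (0) and 7 of macrophages (1), where 10.9% of all genes had such a p. Their mean levels overlapped between the groups in all 5 lists. For enterocytes, the other main source of Apoa1 and Apoa4 in the body, they were 5.10 to 5.21 in Zfp125 cells and 5.10 to 5.24 in EV cells. Because the samples were a hepatocyte line, none of these 5 lists checks another cell source. Some of their markers were dim, such as Sis of enterocytes at 2.54 in Zfp125 cells and 2.69 in EV cells. Lum of fibroblasts was at 2.51 in Zfp125 cells and 2.52 in EV cells, and Ptprc of macrophages at 3.05 and 3.09. Alb, the gene of serum albumin, had means of 12.48 in Zfp125 cells and 12.96 in EV cells, and Ttr, transthyretin, 12.66 in Zfp125 cells and 12.58 in EV cells. Asgr1, a receptor of mature hepatocytes, was dim, at 3.95 in Zfp125 cells and 3.83 in EV cells. The cholangiocyte markers Sox9 (10.04 in Zfp125 cells and 9.75 in EV cells) and Krt19 (8.01 in Zfp125 cells and 8.15 in EV cells) were bright, and Epcam was dim, at 2.76 in Zfp125 cells and 2.73 in EV cells. The part of hepatocyte markers in the falls of Apoa1 and Apoc3 was not tested. In bulk RNA, fewer cells making a transcript and less of it per cell cannot be told apart.

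**Figure D5:**
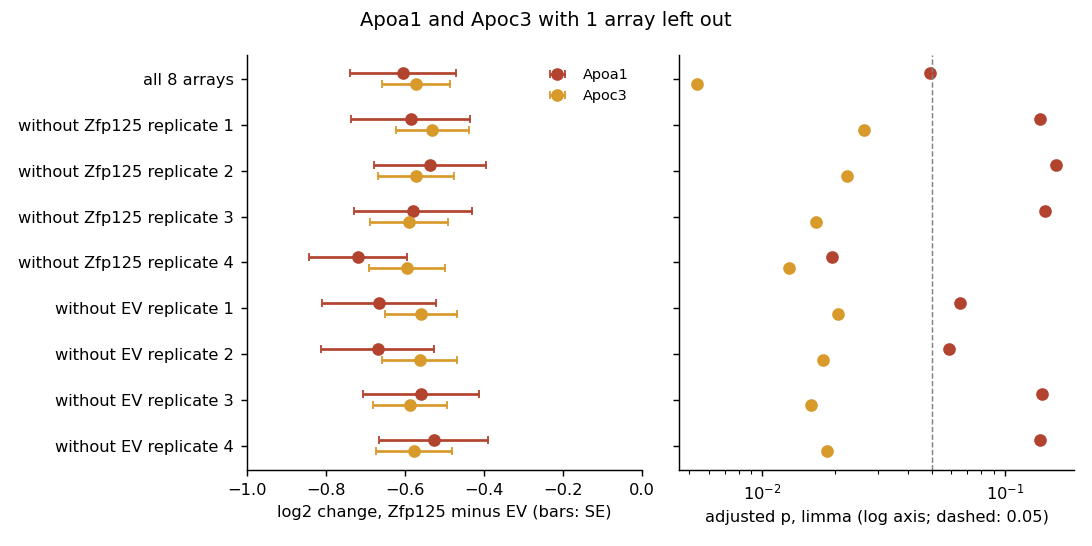
Log2 change, Zfp125 minus EV, with standard errors (left) and limma adjusted p on a log axis (right) for Apoa1 and Apoc3, with all 8 arrays and with 1 array left out; the dashed line is 0.05. Apoc3 stays left of the line throughout, and Apoa1 lies right of it in 7 of the 8 omissions.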

How the data were processed

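RNA of 4 Zfp125 and 4 EV samples was hybridised to Affymetrix mouse gene arrays. The deposited table holds log2 values made by the authors with Affymetrix Expression Console and Transcriptome Analysis Console, per the submitters' processing notes. No source used here gives the versions, the background correction or the normalization; the range of the values showed the log2 scale. Array medians were 4.32 to 4.37, correlations between arrays 0.977 to 0.984. The labels could not be checked against Zfp125, which is not analysed here. The number of arrays limits the precision.

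Clusters with 1 symbol were updated through Entrez to the GRCm38.p6 RefSeq table, and the brightest cluster of each gene was kept. The test was lmFit with eBayes in limma 3.58.1 (R 4.3.3), adjusted over 22180 genes; the code was tested on simulated data. Exact permutation tests used all 70 assignments. All tests were two-sided, and intervals are 95% intervals of limma's fit. Alternatives covered normalization, dim clusters, variance moderation, array weights, choice of clusters, the replicate block and leaving out arrays. Plots used matplotlib 3.10.9.

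The genes and lists were chosen with earlier results of these data known. The text names the 6 genes, the nearest neighbours, up to 5 changed genes of a list (or the 2 with the smallest p), and the 5 nearest profiles of a changed gene. Apoe, Apoa2, Sort1, Lpl, Lmf1, Abca1, Bmp1, Hnf4a, Rora, Ppara, Creb3l3, Nr1h4, Ttr, Asgr1, Krt19, Epcam, Tagln, Gm4791 and Cadm1 were named after their values had been seen, as was the olfactory receptor comparison.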

Additional observations from a re-analysis of the deposited data

How the results depend on the processing

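Apoc3 kept its direction and its call in 18 of 18 alternative settings. Apoa1 kept its direction in all 18 and lost its call in 11: with quantile normalization again (change -0.63, adjusted p = 0.0507), and, at the same change of -0.61, with means of the clusters of a gene (adjusted p = 0.0517), every cluster of the table (0.198) and no variance moderation (0.260); and in 7 of the 8 omissions of 1 array, which gave changes of -0.72 to -0.53 over all 8 and adjusted p-values of 0.0194 to 0.163. The cause of the loss with quantile normalization was not tested. The adjusted p of Apoa1 was 0.0104 with a trended, robust prior and 0.0171 among clusters above the median level. Apoa4, Sik3 and Bud13 kept their direction and passed in none of the 18. Apoa5 passed in none, and with 1 array left out its change was -0.12 to 0.01, so that its sign turned in 3 omissions (0.00132, 0.0129 and 0.00799). The count of all changed genes was 240 and moved to 405 among clusters above the median level, 498 with a trended, robust prior, 26 without moderation, 61 over every cluster, 152 with the replicate block and 109 to 187 with 1 array left out. None of the 18 measured neighbours passed in any setting. Of the lists, counts of changed genes fell without moderation to 1 of 16 apolipoproteins (6 in the report), 2 of 26 lipolysis genes (6), 0 of 22 HDL genes (2), 0 of 43 transcription factors (2) and 0 of 13 hepatocyte markers (5), and over every cluster to 3, 5, 1, 1 and 2. With a trended, robust prior 7 transcription factors, 3 secretion genes, 2 SIK pathway genes, 1 cholangiocyte marker and 1 macrophage marker passed, and among clusters above the median level 5 transcription factors, 1 secretion gene and 1 SIK pathway gene. Hepatocyte markers dropped to 3 without EV replicate 4, Zfp125 replicate 1 or Zfp125 replicate 2.

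Of the 15 pairs, 13 kept the sign of their difference in all 10 settings run for them. With 1 array left out, Apoa1 minus Apoc3 ran from -0.13 to 0.05 (turned at 0.0278, 0.0489, 0.0349 and 0.00976) and Sik3 minus Bud13 from -0.07 to 0.14 (turned at -0.0746, -0.00622, -0.0634 and -0.00237). With the replicate block the changes of Apoa1 and Apoc3 had limma adjusted p = 0.0217 and 0.0246. Same-numbered arrays had residual correlations of -0.05 to 0.04 over all genes. Such values cannot tell whether the numbers mark a shared day or culture, and the labels do not say.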
